A study of Mus musculus with 11 samples.

Results

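Depletion of Tmem120a and depletion of its paralog Tmem120b were compared directly in differentiated 3T3-L1 cells, mouse fibroblasts that turn into fat cells under adipogenic hormones. The comparison took the 2 arrays whose titles name the Tmem120a knock-down and the 2 whose titles name the Tmem120b knock-down, which are 4 of the 11 arrays of the series, and covered all 19057 genes measured. The 3 control adipocyte arrays, the 2 preadipocyte arrays and the 2 double knock-down arrays had no part in the difference itself and stand beside it for reference.

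Tmem120a knock-down cells carried a lentiviral short hairpin RNA (shRNA) against Tmem120a, Tmem120b knock-down cells 1 against Tmem120b, and double knock-down cells both. Control adipocytes carried a non-target shRNA, and preadipocytes were taken at day 0. Differentiation in all other groups was started with rosiglitazone and dexamethasone at 1 µM each, insulin at 0.5 µM and the phosphodiesterase inhibitor IBMX at 0.5 mM, and went on in insulin and rosiglitazone. Differentiated cells are labelled as day 9, but the series design and the methods put the harvest at day 6. The knock-downs are stable shRNA lines. The methods call replicates biological, but no source gives several lines or separate cultures per group, so p-values measure the spread between these arrays, which may be technical. A feature that belongs to a hairpin or to a line cannot be told apart from an effect of the gene it targets.

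Tmem120a and Tmem120b encode multi-pass membrane proteins of the nuclear envelope and endoplasmic reticulum that are found at raised levels in fat cells. Adipogenesis is driven by the transcription factors PPARγ and C/EBPα, which switch on lipid storage and mitochondrial genes while the cells leave the cell cycle and lose much of their contractile and fibroblast programme. Type I interferon signalling, a separate programme that most cells can mount, acts through transcription factors that bind interferon-response elements in the promoters of antiviral genes.

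Values are normalised log2 signals from Illumina MouseWG-6 v2 BeadChips, and a difference is the Tmem120a minus the Tmem120b knock-down mean, so that a positive value is higher in the Tmem120a knock-down. Background lay at log2 6.87, and from 39.0% to 39.1% of probes exceeded it on each array. Before normalisation the median signals of the single knock-downs were close to each other, at 6.63 and 6.58 in the Tmem120a and 6.59 and 6.65 in the Tmem120b knock-down, and those of the control adipocytes were brighter, at 7.10, 6.87 and 6.92. Fat cell markers were well above background in both knock-downs, with Cidec, a lipid droplet protein, between 13.55 and 14.34 on the 4 arrays against 6.65 and 6.66 in preadipocytes. Macrophage and endothelial markers were mostly at background, with 12 of 16 and 10 of 16 measured members there.

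Each targeted gene was lower in its own knock-down. Tmem120a read 11.14 and 11.48 in the Tmem120a knock-down and 12.58 and 12.66 in the Tmem120b knock-down, a difference of -1.31 ± 0.10 (SE; adjusted p = 6.37e-06), which is 2.48-fold. Control adipocytes, at 12.52, 12.69 and 12.69, overlapped the Tmem120b knock-down, and preadipocytes lay at 10.84 and 11.02. Tmem120b read 10.76 and 10.48 in the Tmem120a knock-down and 8.38 and 8.39 in the Tmem120b knock-down, a difference of 2.24 ± 0.09 (adjusted p = 7.07e-08), or 4.72-fold. Here control adipocytes, at 10.53, 10.35 and 10.46, overlapped the Tmem120a knock-down, and preadipocytes lay at 7.32 and 7.49. Another Tmem120b probe gave 2.10, and the dimmest was at background in both groups. The double knock-down was low for both genes, at 11.51 and 11.52 for Tmem120a and 8.87 and 8.79 for Tmem120b. On the brightest probes each single knock-down thus had its paralog at a level that overlapped the control arrays. On the Tmem120b probe that gave 2.10, the Tmem120a knock-down, at 9.73 and 9.64, was above the controls (9.57, 9.25 and 9.35).

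**Figure D1:**
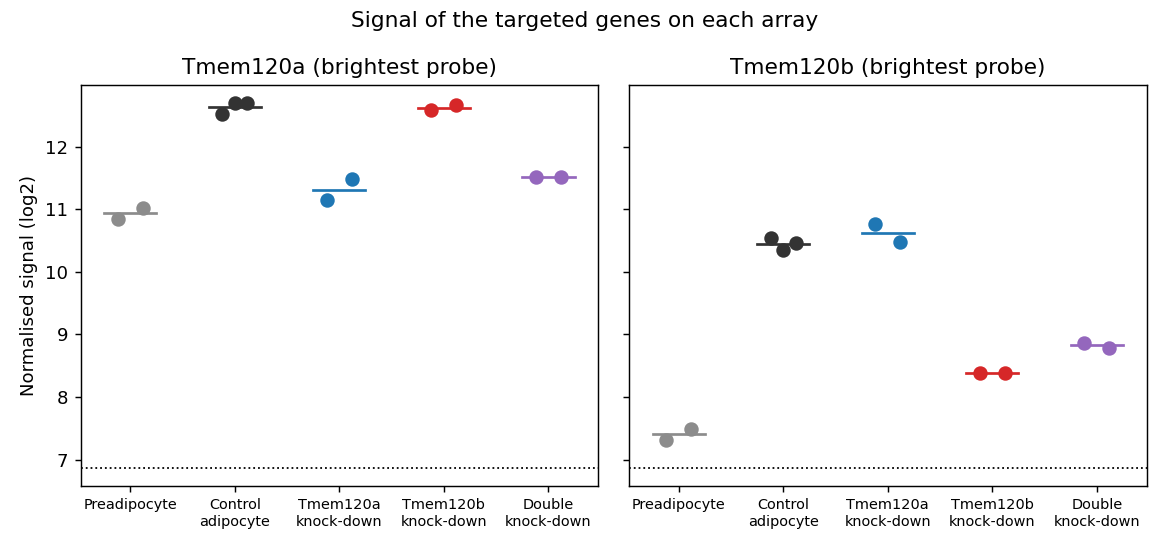
Normalised log2 signal of the brightest Tmem120a probe and the brightest Tmem120b probe (y axis) on each of the 11 arrays by group (x axis). Points are arrays, bars are group means and the dotted line is the background threshold at 6.87; Tmem120a falls below the control arrays in its own and the double knock-down, and Tmem120b in its own and the double knock-down.

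The single knock-downs differed in 1223 genes (6.42% of those tested), with calls requiring a log2 difference of 0.5 (1.41-fold) and an adjusted p no higher than 0.05. Of these, 525 were higher in the Tmem120a knock-down (2.75% of all genes) and 698 in the Tmem120b knock-down (3.66%). Over the 9920 genes above background in 1 or both single knock-downs these shares were 5.29% and 7.04%. The latter are the closer reference for lists with few members at background. The larger differences leaned towards the Tmem120b knock-down, where 123 of the 163 genes (0.855%) that differed at least 2-fold were higher. When a shift of each array to a common median replaced quantile normalisation, 574 genes were called, 167 and 407 in the respective directions, so the share higher in the Tmem120a knock-down went from 42.9% to 29.1%. Among called genes, 13 had 1 single knock-down at background on both arrays.

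**Figure D2:**
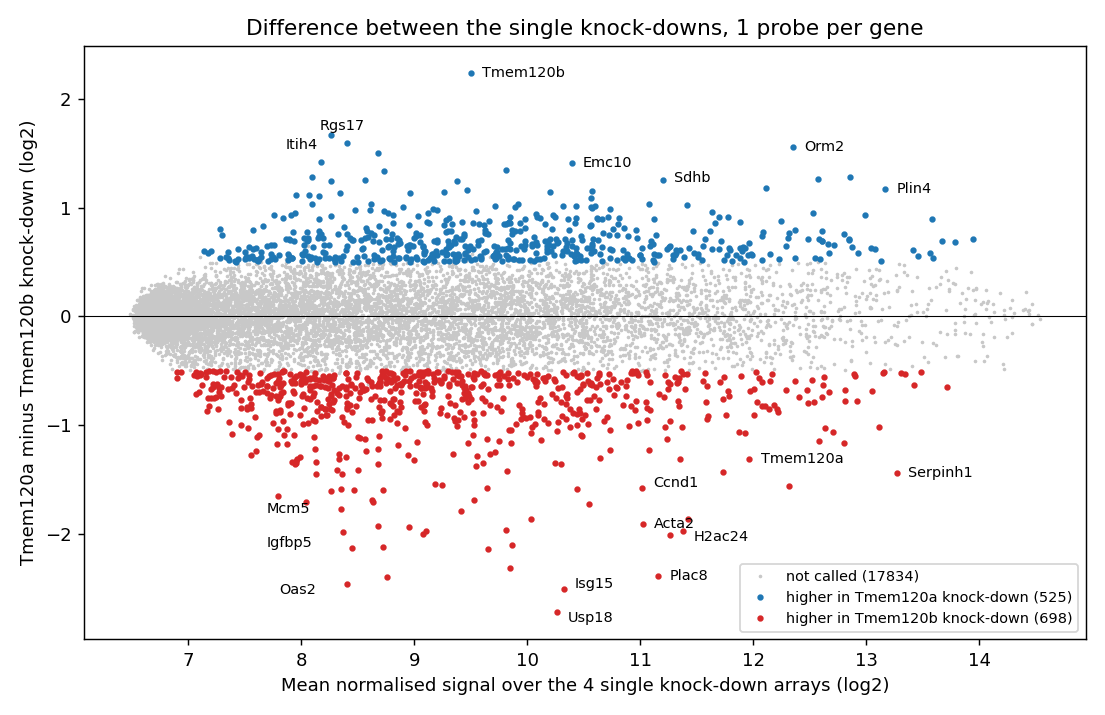
Difference between the single knock-downs on the log2 scale (y axis) against mean log2 signal over the 4 arrays (x axis), 1 point per gene. Grey points were not called, blue points were higher in the Tmem120a knock-down (525) and red points higher in the Tmem120b knock-down (698); Usp18, Isg15 and Oas2 are the lowest points and Tmem120b is the highest.

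Genes of the antiviral interferon response were higher in the Tmem120b knock-down. Of 52 measured antiviral effectors, 33 (63.5%) were called higher there and 0 higher in the Tmem120a knock-down, with a median difference of -0.80 beside 0.0002 for all genes. The largest difference of all was in Usp18, which strips ISG15 from proteins and dampens the interferon receptor. It read 8.74 and 9.06 in the Tmem120a knock-down and 11.70 and 11.54 in the Tmem120b knock-down (-2.72 ± 0.14, 6.6-fold, adjusted p = 2.67e-07). Control adipocytes lay between, at 9.68, 9.50 and 9.41, nearer the Tmem120a knock-down and clear of both.

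Isg15, the ubiquitin-like modifier that Usp18 removes, followed with 8.97 and 9.16 against 11.64 and 11.51 (-2.51 ± 0.14, 5.68-fold, adjusted p = 5.69e-07). Oas2, an oligoadenylate synthetase that helps to trigger RNA decay in infected cells, read 7.14 and 7.21 against 9.67 and 9.61 (-2.46 ± 0.09, 5.51-fold, adjusted p = 5.65e-08). Here the controls, at 7.36, 7.29 and 7.04, overlapped the Tmem120a knock-down and only the Tmem120b knock-down stood apart. Oas1g of the same family read 7.45 and 7.67 against 10.06 and 9.85 (5.28-fold), although probes for the Oas1 copies may share targets. Mx2, a dynamin-like antiviral GTPase, read 7.58 and 7.75 against 9.71 and 9.85 (4.34-fold). The arrays of the knock-downs did not overlap for any of these genes. Oasl2 (4.29-fold) and Bst2, which tethers budding viruses to the cell (3.92-fold), completed the antiviral genes among the 15 largest. The double knock-down was also high, at 10.82 and 10.37 for Usp18, 11.38 and 10.91 for Isg15 and 9.28 and 9.15 for Oas2, all below the Tmem120b knock-down arrays.

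In all 33 called antiviral genes the control mean lay nearer the Tmem120a than the Tmem120b knock-down. Of the 17 with another probe above background, 11 were also called on it, Usp18 among them at -2.31. The count ranged from 31 to 34 when each array of the single knock-downs was left out in turn. Macrophage markers gave 0 of 16 called in either direction, but 12 of them were at background, where a call is hardly possible. Their summed level was 10.92 on both Tmem120a and from 10.88 to 10.89 on the Tmem120b knock-down arrays. A part of other cells in the antiviral differences was not tested. The summed level of the antiviral list was 15.83 and 15.86 against 16.67 and 16.75.

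Of the sensors and transcription factors of the pathway, 4 of 23 measured members (17.4%) were called, all higher in the Tmem120b knock-down, and 2 with arrays at a common median. Irf7, the factor that amplifies the response, was at the edge of background in the Tmem120a knock-down, at 6.86 and 6.97, against Tmem120b knock-down values of 8.14 and 8.24 (-1.27 ± 0.14, adjusted p = 7.47e-05). Stat2 read 7.90 and 7.89 against 8.92 and 8.81, and Irf9 9.05 and 8.90 against 9.90 and 9.90, differences of -0.97 ± 0.10 and -0.93 ± 0.11. Irf1, a factor shared with interferon γ signalling, differed by -0.47 (adjusted p = 0.000445) and missed the fold threshold, but passed it without replicate 1 of the Tmem120a (-0.50) or of the Tmem120b knock-down (-0.52). Ifnb1, which encodes interferon β and was picked after its values were seen, stayed at background in all groups.

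Antigen presentation genes followed the antiviral genes. Of 15 measured members, 8 (53.3%) were higher in the Tmem120b and 0 in the Tmem120a knock-down. Psmb9 and Psmb8, catalytic subunits of the immunoproteasome that cuts peptides for presentation, read 7.96 and 8.19 against 10.16 and 9.98 (3.99-fold), and 8.59 and 8.78 against 10.43 and 10.31 (3.22-fold). Tap2, which carries those peptides into the endoplasmic reticulum, differed by -0.88, and the class I gene H2-T23 by -0.81. Both groups' arrays were separate in each case. For H2-T23 the control mean, 11.24, matched the Tmem120b knock-down (11.25 on both arrays) and it was the Tmem120a knock-down, at 10.42 and 10.45, that was lower.

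Interferon-inducible GTPases and Apol9 genes, a group picked after the values were seen, had 11 of 21 members higher in the Tmem120b knock-down. Apol9a, an apolipoprotein L family gene, read 7.37 and 7.39 against 9.39 and 9.33 (3.95-fold), and Apol9b 7.15 and 7.23 against 8.89 and 8.89. Their probes may not tell these similar copies apart, but probe sequences were not compared. The promoters of the copies are alike too: within the stretches printed here they share an unbroken run of 138 bases. Gm4951 (-1.94) and Gvin1 (-1.61), both GTPase genes of interferon-inducible families, behaved alike.

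The promoters of 4 of these genes are shown because each holds the letters of an interferon-response element. They are the 160 bases upstream of the start site, 5′ to 3′ on the gene's strand, from RefSeq on GRCm38.p6, with matches on either strand to GAAA, any 2 bases and GAAA again in capitals. Isg15 lies at chr4:156200819-156200978 on the minus strand, Oas1g at chr5:120887614-120887773 on the minus strand, Apol9a at chr15:77411081-77411240 on the minus strand and Apol9b at chr15:77728912-77729071 on the plus strand.
Isg15: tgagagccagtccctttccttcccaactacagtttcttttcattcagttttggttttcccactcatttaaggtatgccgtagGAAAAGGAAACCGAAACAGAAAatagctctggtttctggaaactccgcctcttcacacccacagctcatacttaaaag
Oas1g: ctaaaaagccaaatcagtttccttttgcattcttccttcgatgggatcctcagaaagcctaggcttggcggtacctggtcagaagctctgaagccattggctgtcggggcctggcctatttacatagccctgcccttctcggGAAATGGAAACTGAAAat
Apol9a: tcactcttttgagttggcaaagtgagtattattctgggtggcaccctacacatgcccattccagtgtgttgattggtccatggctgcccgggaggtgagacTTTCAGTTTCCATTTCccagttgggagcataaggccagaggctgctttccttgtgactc
Apol9b: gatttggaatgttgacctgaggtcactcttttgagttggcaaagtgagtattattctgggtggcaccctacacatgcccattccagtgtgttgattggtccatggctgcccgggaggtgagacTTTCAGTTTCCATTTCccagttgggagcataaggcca

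Isg15 held 3 overlapping matches and the others 2 each. Promoters from 250 bases before to 50 after the start were at hand for 15237 of the 19057 genes, and 3.99% of them held a match. The share was 7.33% (41 of 559) for genes higher in the Tmem120b knock-down and 3.26% (14 of 430) for genes higher in the Tmem120a knock-down. Of the called antiviral genes 11 of 24 promoters (45.8%) had a match, and of those not called 7 of 13 (53.8%). Called and uncalled members of the antiviral list thus both held the element more often than promoters at large. Without that list the share for genes higher in the Tmem120b knock-down was 5.61% (30 of 535).

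Cell division genes formed the next group. DNA replication genes were higher in the Tmem120b knock-down in 19 of 43 cases (44.2%, median difference -0.48) and mitosis and cytokinesis genes in 23 of 50 (46%, median -0.45), with 0 higher in the Tmem120a knock-down in either list. Mcm5, a subunit of the replicative helicase, read 7.46 and 7.46 in the Tmem120a knock-down and 9.15 and 9.32 in the Tmem120b knock-down (-1.77 ± 0.09, 3.42-fold, adjusted p = 2.74e-07). Control adipocytes, at 7.31, 7.33 and 7.35, were just below the Tmem120a knock-down, and preadipocytes, at 12.19 and 12.08, were far above both. The double knock-down, at 9.01 and 8.70, was also above the control and Tmem120a knock-down arrays, close below the Tmem120b knock-down.

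Uhrf1, which maintains DNA methylation at replication, differed by -1.60, Tk1, the thymidine kinase of S phase, by -1.33, and the helicase subunit Mcm4 by -0.97. A dimmer Tk1 probe differed by -0.34 only. In mitosis, Prc1, which bundles the microtubules of the spindle midzone, read 7.84 and 7.72 against 9.44 and 9.53 (-1.71 ± 0.07, adjusted p = 5.95e-08). Cenpa, the centromeric histone, differed by -1.54, Top2a, which untangles chromosomes, by -1.35 (and by -0.30 on a dimmer probe), and Cdc20, an activator of the anaphase-promoting complex, by -1.29. In all 42 called genes of both lists the control mean was nearer the Tmem120a knock-down. Of called genes with another probe above background, 1 of 7 in replication and 5 of 11 in mitosis and cytokinesis were also called on it.

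Among cyclins and their inhibitors the directions were mixed, with 4 members higher in the Tmem120b and 2 in the Tmem120a knock-down of 22, or 1 and 0 with arrays at a common median. Ccnd1, the cyclin that starts the passage through G1, read 10.10 and 10.36 against 11.78 and 11.83 (-1.58 ± 0.08, 2.98-fold), while controls lay at 10.02, 10.11 and 10.12. E2f1, the transcription factor released at that step, differed by -0.65. Rb1 (0.57), which holds E2F factors back, and the CDK inhibitor Cdkn2c (0.64, or 0.48 over the mean of its probes, which is not called) were higher in the Tmem120a knock-down. Cdkn1a, the p21 inhibitor, picked after its values were seen, differed by -0.35 and was not called.

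Histone H2A genes were prominent. H2ac12, H2ac7 and H2ac24 were 4.97-fold, 4.03-fold and 3.92-fold higher in the Tmem120b knock-down. H2ac12 read 8.71 and 8.68 against 10.82 and 11.19, with controls at 9.42, 9.59 and 9.24 and preadipocytes at 13.23 and 13.65. The order of levels, from the Tmem120a knock-down through control and Tmem120b knock-down to preadipocytes, was the same for H2ac7 and H2ac24. Of 55 replication-dependent histone genes, picked after the values were seen, 10 were higher in the Tmem120b knock-down and 0 in the other. The high preadipocyte level of these H2ac genes did not hold for the whole list, of which 23 rose in differentiation and 11 fell. These coding sequences are nearly identical, so the H2ac probes may report the same transcripts. Gm5886, a predicted gene, was also higher in the Tmem120b knock-down (4.40-fold), where it overlapped preadipocytes (10.69 and 10.35).

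E2F sites were looked for in the same promoter windows, as TTTGGCGC or TTTCCCGC on either strand. Of genes higher in the Tmem120b knock-down 3.94% (22 of 559) held 1 or more, against 2.5% of all promoters and 3.27% of those of genes above background. Of the called replication and mitosis genes 6 of 38 (15.8%) held a site, and of those not called 6 of 40 (15%). The Mcm5 promoter is printed as the example with the largest difference in the replication list, with its match, on the opposite strand, in capitals. It lies at chr8:75109349-75109508 on the plus strand (GRCm38.p6, RefSeq).
Mcm5: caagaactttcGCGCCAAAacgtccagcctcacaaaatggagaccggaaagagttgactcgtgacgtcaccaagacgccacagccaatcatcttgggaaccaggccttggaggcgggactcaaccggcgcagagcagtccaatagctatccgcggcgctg

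**Figure D3:**
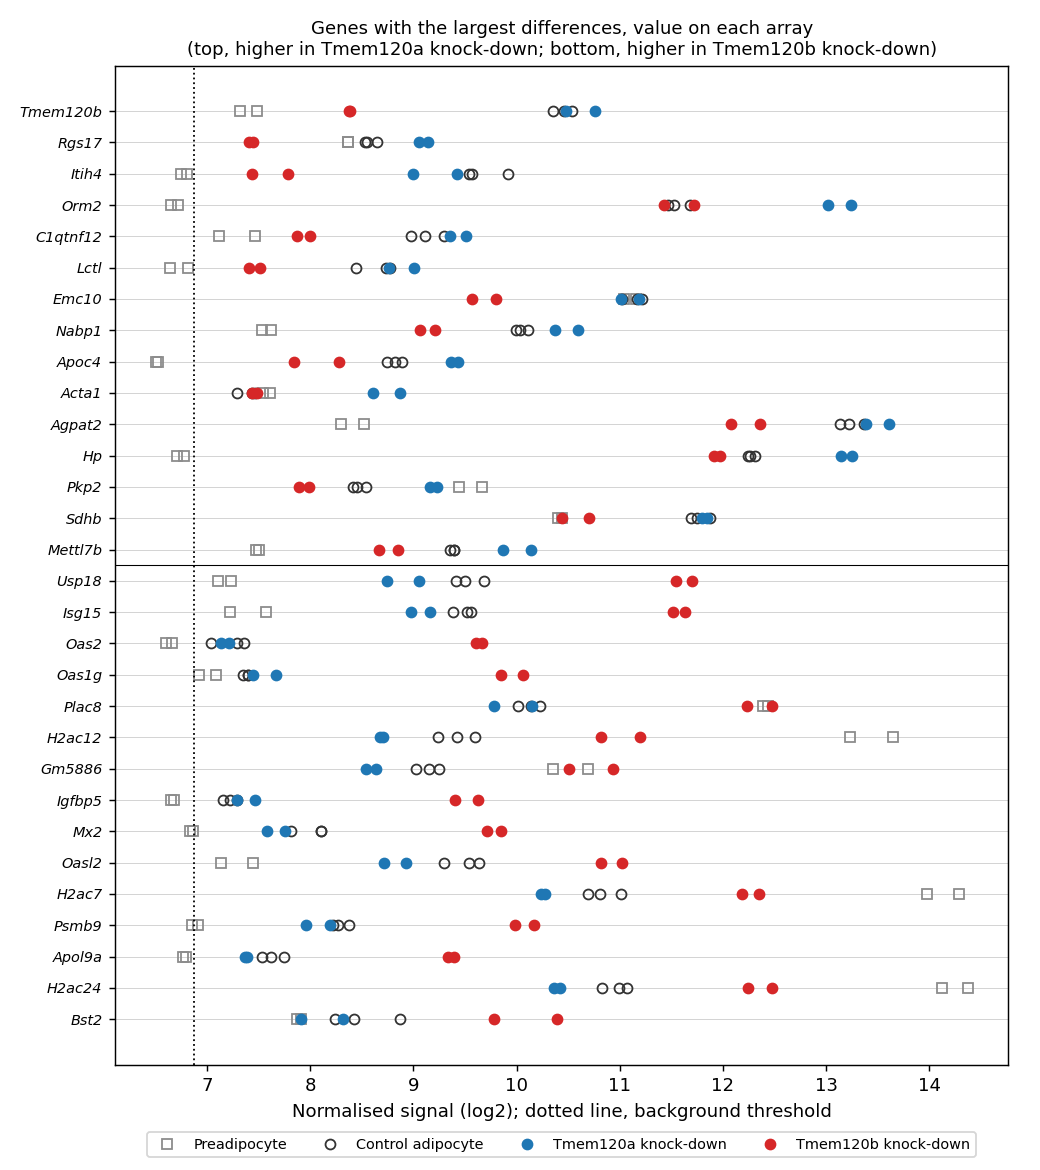
Normalised log2 signal (x axis) of the 15 genes with the largest difference in each direction (y axis), 1 symbol per array. Filled blue and red circles are the Tmem120a and Tmem120b knock-downs, open circles control adipocytes and squares preadipocytes; blue and red never overlap, and controls lie near blue for most interferon genes but near red for Orm2 and Acta1.

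Genes of the fat cell itself were higher in the Tmem120a knock-down. Of 31 fat cell markers 12 were called (38.7%), all in that direction, with a median difference of 0.38. Plin4, which coats lipid droplets, read 13.82 and 13.69 in the Tmem120a knock-down and 12.67 and 12.50 in the Tmem120b knock-down (1.17 ± 0.10, 2.26-fold, adjusted p = 1.16e-05), with controls at 13.63, 13.49 and 13.45. Rarres2, which encodes the adipokine chemerin, differed by 0.89, the glycerol channel Aqp7 by 0.85 and the droplet protein Cidec by 0.71. The control mean lay nearer the Tmem120a knock-down for 9 of the 12 called markers and nearer the Tmem120b knock-down for 3. Aqp7 (control mean 9.61, beside 10.23 and 9.38) and Cidec (13.84, beside 14.30 and 13.59) were of the second kind. All of the genes named here stayed far above the preadipocyte level in both knock-downs.

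Several central genes, picked after their values were seen, differed less or not detectably. Pparg was 0.69 higher in the Tmem120a knock-down (12.98 and 12.93 against 12.26 and 12.26, adjusted p = 0.000988) and the leptin gene Lep 0.54 higher. Cebpa differed by 0.57 but its replicates were apart, at 10.18 and 9.42 against 8.96 and 9.49 (95% interval 0.12 to 1.03, adjusted p = 0.124). Fabp4, the fatty acid carrier, differed by 0.38 (0.10 to 0.66, adjusted p = 0.0924), at 8.41 and 8.48 against 8.11 and 8.01. Its probe was dim, at 7.30, 7.41 and 7.37 in control adipocytes and at background in preadipocytes (6.65 and 6.63), which limits what it can show. Adipoq, which encodes adiponectin, read 14.42 and 14.22 against 14.24 and 14.35, and the interval of its difference ran from -0.22 to 0.28. Probes this bright lie near the top of the scale, where the highest value was 14.61.

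Lipid synthesis and storage genes shared the direction. Of 29 genes of fatty acid and triglyceride synthesis 8 were higher in the Tmem120a knock-down and 0 in the Tmem120b knock-down (median 0.31), and of 24 genes of lipolysis and lipid droplets 10 and 2 (median 0.38). Agpat2, the acyltransferase that makes phosphatidic acid and whose loss causes lipodystrophy in humans, was 2.43-fold higher. It read 13.61 and 13.38 against 12.07 and 12.36 (1.28 ± 0.12, adjusted p = 2.56e-05), with controls just below the Tmem120a knock-down at 13.37, 13.22 and 13.14. Lpin1 (0.90) and Gpat3 (0.81) act on either side of it in the same pathway, and Acly (0.62) supplies the acetyl-CoA. Angptl4, a lipase inhibitor, differed by 0.71 on its brightest probe and by 0.19 on a dimmer one, and its mean of 0.45 was not called.

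Enzymes that burn fuel in mitochondria were also higher in the Tmem120a knock-down. Of 26 genes of pyruvate entry and the TCA cycle 13 (50%) were higher in the Tmem120a knock-down and 1 in the Tmem120b knock-down, of 23 beta-oxidation genes 9 and 0, and of 20 genes of branched-chain amino acid breakdown 8 and 1. Sdhb, the iron-sulphur subunit of succinate dehydrogenase, read 11.80 and 11.85 against 10.71 and 10.44 (1.25 ± 0.09, 2.38-fold, adjusted p = 3e-06) and differed by 1.48 on another probe. Controls, at 11.69, 11.75 and 11.87, overlapped the Tmem120a knock-down, and preadipocytes, at 10.44 and 10.40, met the lower Tmem120b knock-down array. Cs, the citrate synthase (0.56), went the same way. So did Dld (0.76), shared by several dehydrogenase complexes, but its controls, at 10.08, 10.03 and 10.17, were above both knock-downs. The Tmem120a knock-down, at 8.68 and 8.42 for Dld, overlapped preadipocytes (8.74 and 8.67), and the Tmem120b knock-down was lower, at 7.77 and 7.82.

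In beta oxidation, Hadhb, of the trifunctional protein, read 12.06 and 11.80 against 10.89 and 10.91 (1.03 ± 0.10), but here the controls, at 12.83, 12.64 and 12.65, were above both knock-downs. Cpt2, which completes the transfer of fatty acids into mitochondria, differed by 0.78 and was called on both of its other bright probes (0.79 and 0.94). Etfdh (0.79), which passes on the electrons, and Acadvl (0.77), which acts on the longest chains, were also higher in the Tmem120a knock-down. For branched-chain amino acids, Pccb (0.90), Acadsb (0.85), Bckdhb (0.84) and Mccc2 (0.83) act at different steps of the breakdown. The controls of Acadsb (mean 10.77, beside 10.00 and 9.15) and Bckdhb (9.95, beside 9.38 and 8.54) were above both knock-downs. Those of Pccb (10.73, beside 10.88 and 9.98) lay just below the Tmem120a knock-down, and those of Mccc2 overlapped it.

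Respiratory chain subunits differed less. Complex I had 3 of 39 members called and complexes III, IV and V together 5 of 39, all higher in the Tmem120a knock-down, with medians of 0.13 and 0.19. With arrays at a common median each of these counts was 1, and the second was 3 without the Tmem120a replicate 2. Cox8b, a complex IV subunit typical of brown fat and muscle, read 12.83 and 12.57 against 11.76 and 11.28 (1.18 ± 0.13), while controls were at 12.66, 12.77 and 12.76. Mitochondrial ribosomal proteins had 2 of 76 called (2.63%), beside 2.75% of all genes and 5.29% of genes above background. Of these 76 members 73 were above background. This list depended on single arrays, with 8 higher in the Tmem120a knock-down without its replicate 1 and 1 without its replicate 2, and 11 and 0 without the respective Tmem120b replicates.

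With arrays at a common median only, fat cell markers had 6 members called in place of 12, fatty acid and triglyceride synthesis 5 in place of 8, lipolysis and lipid droplets 4 in place of 10, branched-chain amino acid breakdown 4 in place of 8 and the TCA cycle 3 in place of 13, counting those higher in the Tmem120a knock-down. In bulk RNA, fewer fat cells in a culture and less of a transcript in each fat cell cannot be told apart. Preadipocyte and fibroblast markers moved opposite to the fat cell genes, with 7 of 29 higher in the Tmem120b knock-down and 0 in the other, and a summed level of 15.23 to 15.26 in the Tmem120a against 15.45 to 15.55 in the Tmem120b knock-down. The part of such a shift in the metabolic differences was not tested.

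Contractile genes of the smooth muscle type were higher in the Tmem120b knock-down in 10 of 25 cases (40%), or 6 with arrays at a common median, and lower in 1. Acta2, the smooth muscle actin that fibroblasts also make, read 10.04 and 10.11 against 12.02 and 11.94 (-1.91 ± 0.09, 3.75-fold, adjusted p = 2.02e-07). Controls lay at 10.31, 10.29 and 10.09 and preadipocytes at 14.54 and 14.45, so the Tmem120b knock-down stood between undifferentiated and differentiated cells. A further 3 Acta2 probes differed by -1.23 to -1.68. Tpm2, a tropomyosin, differed by -1.0 and Myl9, a myosin light chain, by -0.89. Myh9, the heavy chain of non-muscle myosin, differed by -0.71 on its brightest probe and -0.03 on another.

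Matrix genes followed in part. Of 41 collagens and matrix genes 9 (22%) and of 18 matrix proteases and inhibitors 5 (27.8%) were higher in the Tmem120b knock-down, with 0 in the other direction. Serpinh1, the collagen chaperone HSP47, read 12.54 and 12.56 against 13.94 and 14.05 (-1.44 ± 0.07, 2.72-fold, adjusted p = 1.04e-07) and differed by -1.62 on another probe. The controls, at 13.57, 13.69 and 13.69, sat nearer the Tmem120b knock-down, so it was the Tmem120a knock-down that fell below them. Lum, a collagen-binding proteoglycan, read 11.07 and 10.95 against 12.30 and 12.60, with controls at 11.19, 11.09 and 10.96. The difference in Lum was of the same size as in Serpinh1, but there the controls overlapped the Tmem120a knock-down.

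Tnc differed by -0.99 on its brightest probe, -1.0 on another and -0.10 on the dimmest above background. Fn1, fibronectin, differed by -1.06, and by -0.27 to -0.46 on its other probes, none of which was called. The gelatinase gene Mmp9 (-1.18), the protease inhibitors Timp1 (-1.07) and Timp2 (-1.03) and Plat, the tissue plasminogen activator (-0.95), were higher in the Tmem120b knock-down as well. Of the fibroblast markers, the surface protein Thy1 (-1.01) and the transcription factors Twist2 (-1.02), Snai2 (-0.82) and Sox9 (-1.13, and -0.48 on another probe) were called. Plac8, a small cysteine-rich protein outside these lists, was 5.23-fold higher in the Tmem120b knock-down, at 12.47 and 12.23 against 9.78 and 10.15, and there overlapped preadipocytes (12.43 and 12.38).

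Secreted factors split by kind. Acute-phase proteins went both ways, with 5 of 20 higher in the Tmem120a and 3 in the Tmem120b knock-down, or 1 there without the Tmem120b replicate 1. Orm2, an acid glycoprotein that fat cells release, read 13.02 and 13.25 against 11.72 and 11.43 (1.55 ± 0.11, 2.94-fold, adjusted p = 2.15e-06), and haptoglobin, Hp, 13.25 and 13.15 against 11.91 and 11.97 (1.26 ± 0.06, 2.39-fold). For Orm2 the controls, at 11.68, 11.47 and 11.53, overlapped the Tmem120b knock-down, so the Tmem120a knock-down was the group raised. Itih4, a serum protease inhibitor family member, had the reverse arrangement, at 8.99 and 9.42 against 7.78 and 7.44 (3.02-fold) with controls higher still, at 9.56, 9.54 and 9.92. Hpx, hemopexin, was higher in the Tmem120b knock-down (-0.84) on its brightest probe and not called on another (-0.19). On the brightest probe its controls, at 7.14, 7.17 and 7.17, were below both knock-downs (8.02 and 7.96 against 8.90 and 8.75).

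Chemokines and cytokines had 8 of 32 members higher in the Tmem120b knock-down (25%) and 0 in the other. Ccl5, a T-cell attractant that interferon also induces, read 7.52 and 7.41 against 9.02 and 8.58 (-1.34 ± 0.12). Cxcl10, another interferon target, differed by -0.56, but by -0.49, below the fold threshold, without the Tmem120a replicate 1. Its controls, at 7.27, 7.33 and 7.27, were below both knock-downs (7.88 and 8.02 against 8.48 and 8.54). The double knock-down was highest for Cxcl10, at 8.77 and 8.78. Cxcl12, a stromal chemokine, differed by -1.01 on its brightest probe and by -0.42 and -0.21 on others, and Ccl7 by -0.73.

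The insulin-like growth factor axis differed in 6 of 11 genes, 5 of them higher in the Tmem120b knock-down, or in 3 with arrays at a common median, 2 of them higher there. Igfbp5, which binds the growth factors outside the cell, read 7.47 and 7.29 against 9.40 and 9.63 (-2.13 ± 0.11, 4.39-fold, adjusted p = 2e-07). The Tmem120b knock-down stood above all other groups, with controls at 7.29, 7.22 and 7.15 and preadipocytes at background, at 6.68 and 6.65, and the double knock-down came nearest at 8.61 and 8.29. Igf2 was lower in the Tmem120a knock-down, at 12.09 and 12.36 against 13.25 and 13.53, where the controls (13.68, 13.55 and 13.55) were higher still than the Tmem120b knock-down. Igf1 went the other way (0.70), and Igf2r, which clears Igf2, differed by -0.59.

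The remaining genes among the 15 highest in the Tmem120a knock-down belong to no common list. Rgs17, a regulator of G-protein signalling, read 9.06 and 9.14 against 7.41 and 7.45 (1.67 ± 0.07, 3.18-fold, adjusted p = 7.07e-08). Controls at 8.53, 8.65 and 8.55 and preadipocytes at 8.37 and 8.37 lay between, separate from both knock-downs. Emc10, a subunit of the complex that inserts membrane proteins into the endoplasmic reticulum, read 11.01 and 11.19 against 9.57 and 9.80 (2.67-fold) and differed by 1.33 on another probe. The Tmem120a knock-down overlapped controls (11.17, 11.22 and 11.02) and preadipocytes (11.04 and 11.16), and of the 5 groups both with depleted Tmem120b were lower, the double knock-down at 10.02 and 10.05.

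Acta1, the skeletal muscle actin, was highest in the Tmem120a knock-down, at 8.61 and 8.87 against 7.44 and 7.48, with controls at 7.43, 7.47 and 7.29 and the double knock-down at 7.68 and 7.92. The skeletal muscle list otherwise had few calls, with 2 of 37 in each direction and 24 at background. C1qtnf12, the insulin-sensitising adipokine adipolin, was 2.83-fold higher in the Tmem120a knock-down, Apoc4, an apolipoprotein, 2.52-fold, and Nabp1, a single-stranded DNA-binding protein, 2.55-fold. Lctl, of the Klotho family (2.68-fold), the desmosomal protein Pkp2 (2.38-fold) and the methyltransferase Mettl7b (2.37-fold) completed the 15. All of these had separate arrays.

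**Figure D4:**
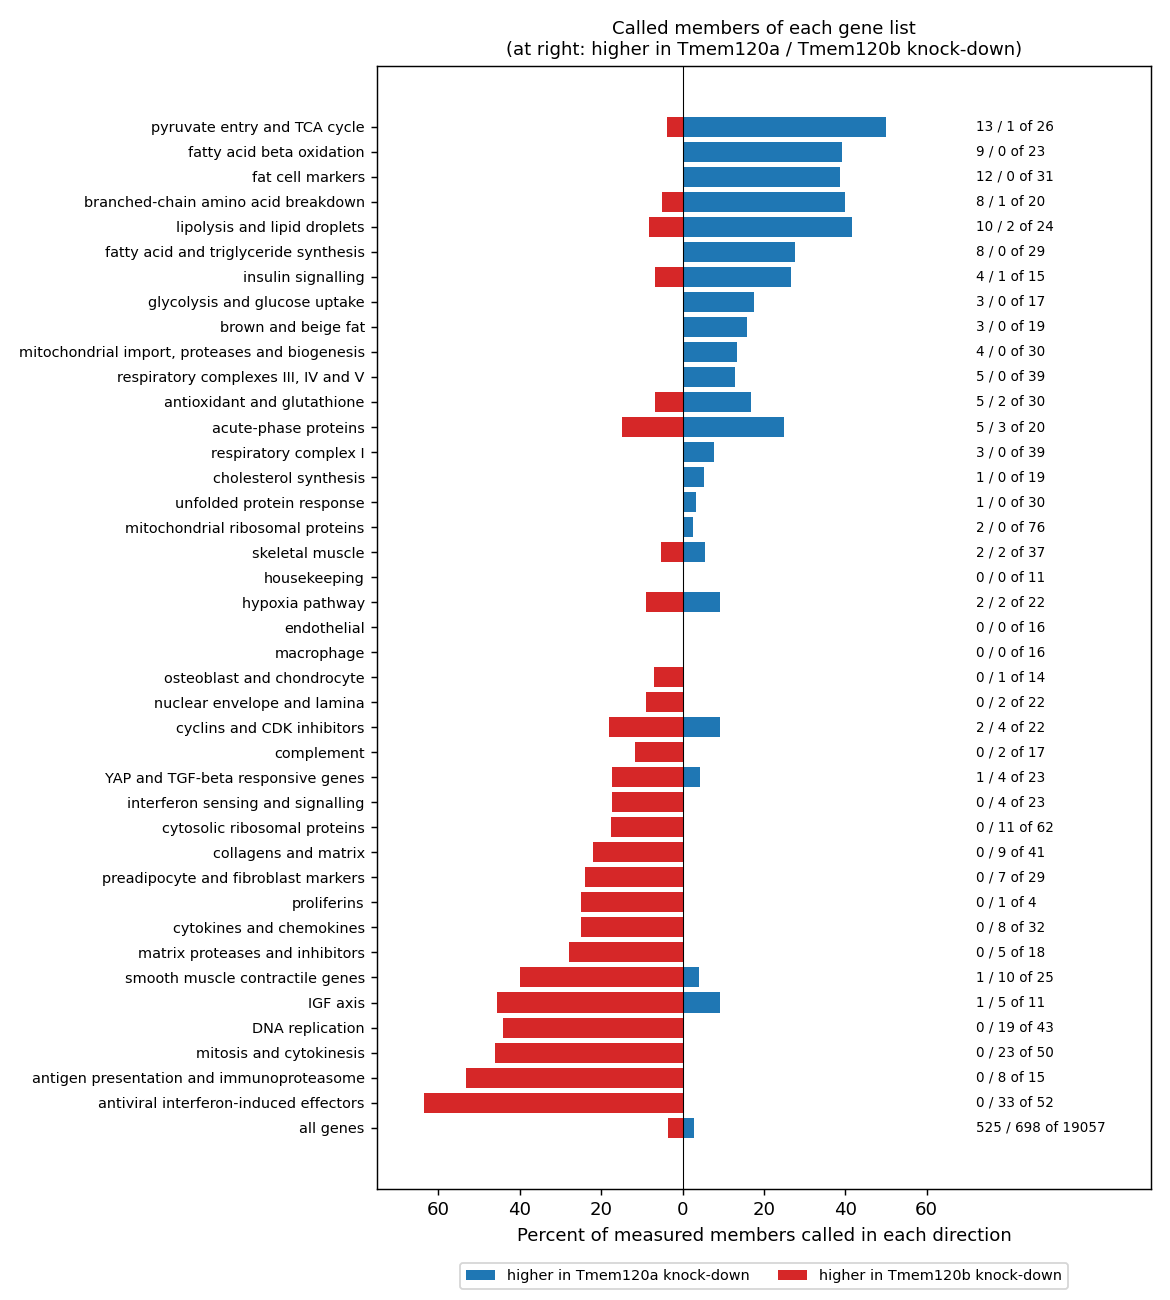
Percent of the measured members of each gene list called higher in the Tmem120a knock-down (blue, right of 0) and in the Tmem120b knock-down (red, left of 0), with the counts at the right. Metabolic lists extend to the right, up to 50% for pyruvate entry and the TCA cycle, antiviral and cell division lists to the left, and all genes give 2.75% and 3.66%.

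Other lists had few calls. Over genes above background 5.29% were called higher in the Tmem120a and 7.04% in the Tmem120b knock-down. The nuclear envelope list, at 9.09% higher in the Tmem120b knock-down, was near the second share. Of 22 genes of the nuclear envelope and lamina 2 were called, Lmnb1 (-0.80), lamin B1, and Nrm (-0.82), nurim, both higher in the Tmem120b knock-down, and the count was 4 without the Tmem120a replicate 2 or the Tmem120b replicate 1. Emd, emerin, differed by -0.45 and Tmpo by -0.47 without being called, although Emd passed without replicate 2 of either knock-down (-0.53 and -0.52) and Tmpo without replicate 1 of either (-0.56 in both cases). The unfolded protein response had 1 of 30 called (Dnajb9, 0.81). Hspa5, the central chaperone of this response, picked after its values were seen, read 6.92 and 6.97 against 6.97 and 7.03. The 95% interval of its difference ran from -0.26 to 0.14. Both single knock-downs lay just above background for Hspa5, which limits what their difference can show. They were far below its controls (8.54, 8.72 and 8.70) and preadipocytes (8.40 and 8.47), and the double knock-down was also low, at 6.77 and 7.06. Housekeeping genes had 0 of 11 called on their brightest probes, with a median difference of 0.03, which became -0.07 with arrays at a common median. A dimmer probe of Hprt, a member of this list, was called higher in the Tmem120a knock-down (0.57, adjusted p = 0.00072). Its brightest probe differed by 0.13 and a further one by 0.15.

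Signalling and stress lists were smaller. Of 15 insulin signalling genes 4 were higher in the Tmem120a and 1 in the Tmem120b knock-down, or 1 and 0 with arrays at a common median, led by Grb14 (1.04), an adaptor that restrains the insulin receptor, while Pik3r1 (-0.66), the regulatory subunit of PI3-kinase, which was picked after its values were seen, went the other way and was not called without the Tmem120b replicate 1. Glycolysis and glucose uptake had 3 of 17 and brown and beige fat 3 of 19 higher in the Tmem120a knock-down and 0 in the other, and antioxidant and glutathione genes 5 and 2 of 30. With arrays at a common median these counts were 0 for glycolysis, 1 for brown and beige fat and 1 in each direction for antioxidant genes. Brown and beige fat also had 1 called without the Tmem120a replicate 1, and the antioxidant counts were 5 and 0 without that array, 3 and 2 without the Tmem120a replicate 2, 5 and 1 without the Tmem120b replicate 1 and 2 and 2 without the Tmem120b replicate 2. Mitochondrial import had 4 of 30, led by the processing peptidase subunit Pmpcb (1.01), and cholesterol synthesis 1 of 19, all higher in the Tmem120a knock-down, or 1 and 0 with arrays at a common median. For Pmpcb the controls, at 10.68, 10.70 and 10.65, were above both knock-downs. The hypoxia list was even, with 2 of 22 in each direction, or 0 and 1 with arrays at a common median and 2 and 4 without the Tmem120a replicate 2, P4ha2 (-1.09), a collagen prolyl hydroxylase, being the largest. YAP and TGF-beta responsive genes had 1 higher in the Tmem120a and 4 in the Tmem120b knock-down of 23, led by the matricellular gene Ccn5 (-1.27). Complement had 2 of 17, osteoblast and chondrocyte markers 1 of 14, which was Sox9, and proliferins 1 of 4, all higher in the Tmem120b knock-down. Of these, complement had 1 and proliferins 0 called with arrays at a common median. Endothelial markers had 0 of 16 called.

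Cytosolic ribosomal proteins had 11 of 62 higher in the Tmem120b knock-down and 0 in the other (median -0.27), among them Rps15 (-0.82), Rpl22 (-0.66) and Rps10 (-0.63). That count was 5 without the Tmem120b replicate 1 and 20 without its replicate 2, and pseudogene copies may share these probes. Ghrh, which encodes growth hormone-releasing hormone and was picked after its values were seen, read 8.34 and 8.40 against 8.63 and 7.78, far below the controls (11.39, 11.38 and 11.28) in both. The interval of its difference ran from -0.28 to 0.61.

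Control adipocytes lay nearer the Tmem120a than the Tmem120b knock-down for 973 of the 1223 called genes (79.6%), beside 54.8% of all genes. This held for 579 of 698 genes higher in the Tmem120b knock-down (83%). Of those higher in the Tmem120a knock-down it held for 394 of 525 (75%). The control mean was above both knock-downs for 29.5% of the genes higher in the Tmem120a knock-down, beside 26.5% of all genes. It was below both for 29.9% of those higher in the Tmem120b knock-down, beside 37.6% of all genes. The control mean was between both knock-downs for 67% of called genes, beside 35.9% of all genes. The contrast did not use the double knock-down arrays. Their mean lay nearer the Tmem120b knock-down for 1101 of the called genes (90.0%), beside 60.7% of all genes. It lay between both for 82.9% of called genes, beside 41.3% of all genes. Called genes were chosen for a gap between the single knock-downs, so a place between them is likelier by that choice. Over all genes the double knock-down arrays correlated with the Tmem120b knock-down arrays at r = 0.993 to 0.996. With the Tmem120a knock-down arrays r was 0.987 to 0.988. These correlations are across genes, which are not independent replicates.

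The called genes were also read against normal differentiation, taken from control adipocytes and preadipocytes, which the knock-down contrast did not use. Of the 525 genes higher in the Tmem120a knock-down 429 (81.7%) rose in differentiation and 14 (2.67%) fell, where 11.9% of all genes rose and 11.1% fell. Of the 698 higher in the Tmem120b knock-down 356 (51%) fell and 153 (21.9%) rose. As shares of the differentiation genes these are 18.9% of the 2267 that rose and 16.9% of the 2110 that fell. Across all genes r between the differences was 0.42, given as a description.

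**Figure D5:**
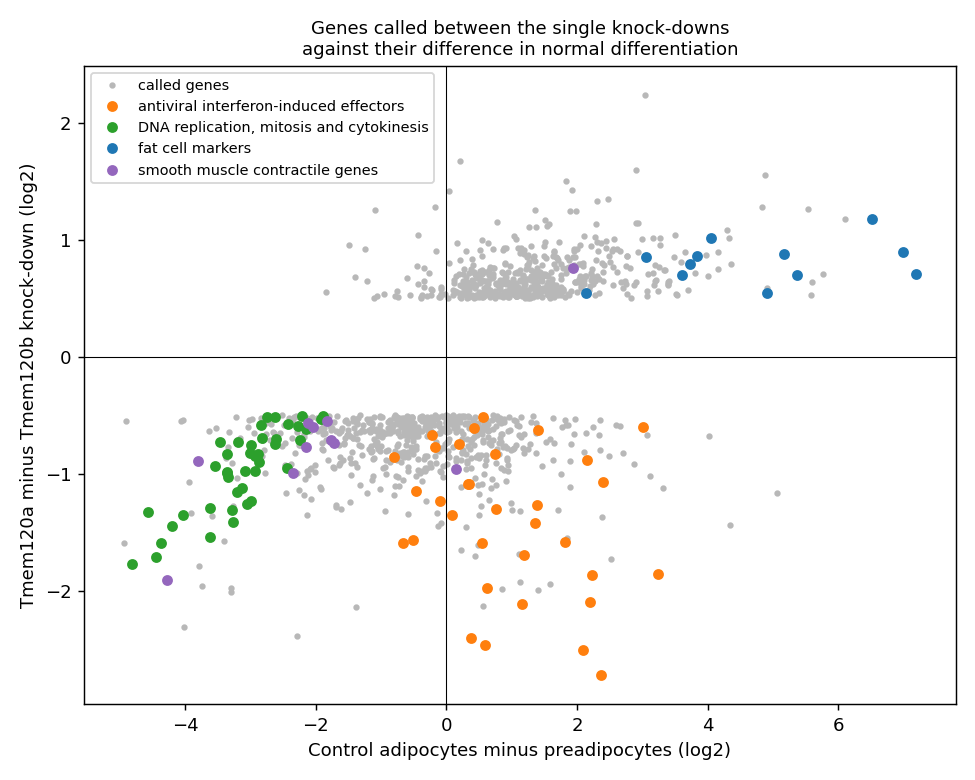
Difference between the single knock-downs (y axis, log2) against the difference between control adipocytes and preadipocytes (x axis, log2) for the 1223 called genes. Fat cell markers fall at upper right, replication, mitosis and most contractile genes at lower left, and antiviral genes at lower right and lower centre.

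Some lists with calls in the Tmem120b direction did not fall in differentiation. Of the 52 antiviral effectors 22 rose in differentiation and 3 fell, of the 15 antigen presentation genes 12 rose and 0 fell, and of the 41 collagens and matrix genes 20 rose and 4 fell. Replication and mitosis genes fell in differentiation in 39 of 43 and 38 of 50 cases and rose in 0.

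Probes of 1 gene did not always agree. Of the 541 called genes with another probe above background, 505 (93.3%) had the same sign on it and 229 (42.3%) were called on it in the same direction, with 0 called in the opposite direction. Besides those named above, Acadvl (0.77 and 0.41), Cdc20 (-1.29 and -0.44 on the dimmest of its bright probes), Nabp1 (1.35 and 0.42, with 0.90 on a further probe), Rarres2 (0.89 and 0.28, with 1.07 on a further probe), Atp5a1 (0.86 and 0.12), Masp1 (-0.99 and -0.13), Ccn4 (-1.02 and -0.16) and Vegfa (0.63 and 0.27) gave different values on their probes, with the second value of each not called.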

How the data were processed

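RNA of 11 samples was hybridised to Illumina MouseWG-6 v2 BeadChips. The authors deposited log2 signals for 45281 probes both before and after quantile normalisation over all arrays, using limma. The sources used here do not give its version, the bead summary or the background correction, no detection p-values were used, and 0 columns were unmapped.

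Normalised values were fitted with limma 3.58.1 in R 4.3.3 as 5 group means over 11 arrays with no covariate. The Tmem120a minus Tmem120b knock-down contrast was moderated by empirical Bayes (6 residual and 6.15 prior degrees of freedom) and adjusted by Benjamini-Hochberg over all probes. The methods' signal floor of log2 6.5, required here on at least 1 array, removed 0 probes. The script recovered known differences when tested on simulated data. Of the probes 34885 carried 1 gene symbol, 18 several, 10378 none and 78 had no RefSeq match; 227 called probes had no symbol. Each gene is its brightest probe. Background is the mode of all values (6.66) plus 3 times the spread below it (0.072). The number of arrays limits precision: the median residual SD was 0.073.

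The genes named are both targets, the 15 largest differences in each direction (called, no overlap between arrays, 1 or both groups above background), the 4 strongest members of each list and members whose probes disagree; others are said to be picked afterwards. The lists, tests and members were chosen with earlier results of these data known. Alternatives covered normalisation, arrays, replicate number, moderation, test statistic, filter, probe choice and fold threshold. Figures used matplotlib 3.10.9.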

Additional observations from a re-analysis of the deposited data

How the results depend on the processing

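Counts of called genes depended mainly on normalisation and the fold threshold. Shifting the arrays to a common median gave 574 genes (167 higher in the Tmem120a and 407 in the Tmem120b knock-down), of which 560 were among the 1223 called, and 38 of 174 list members and leading genes lost their call, Acly, Atp5a1, Cdkn2c, Cs, Dld, Dnajb9, E2f1, Igf2r, Irf9, Lmnb1, Mccc2, Rb1, Rpl22 and Vegfa of those named above. Some of these differences were as large or larger there (Irf9 -1.0, E2f1 -0.70, Igf2r -0.67 and Rpl22 -0.75) and lost the call through the adjusted p; the cause was not tested. Without a fold threshold 2807 genes were called (1307 and 1500), and at 2-fold 163 (40 and 123), as fewer or more genes pass by construction. Leaving out each array in turn gave 1179 to 1364 genes, 523 to 589 higher in the Tmem120a and 647 to 775 in the Tmem120b knock-down, with 1012 to 1091 of the 1223 kept; the lone array was then assumed to vary like the other groups. Requantile normalisation gave 1223, cyclic loess 1161, the mean of a gene's probes 1003, the 4 single knock-down arrays alone 1214, a variance trend with robust moderation 1234 and the F statistic 1236. All 30 genes with the largest differences were called under these settings. The deviations of same-numbered arrays gave no clear pairing by replicate number. They correlated at -0.14 between the single knock-downs and at -0.09 to 0.22 between other groups. With 2 arrays in most groups these values cannot tell whether arrays shared a run. With the replicate block 1223 genes were called (1216 shared), and with crossed numbers, chosen after seeing the data, 1218. No called value turned its direction. List medians near 0 (acute-phase, housekeeping, unfolded protein response, skeletal muscle, macrophage and endothelial) changed sign under 1 or more settings, that of acute-phase proteins from -0.005 to 0.43 over genes above background. Dim probes limit what can be seen: 9137 of the 19057 genes were at background in both knock-downs.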
